A study of Mus musculus with 6 samples.

Results

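The Schlafen genes are a family of interferon-inducible genes of immune cells. The 7 members described here are Slfn1, Slfn2, Slfn3, Slfn4, Slfn5, Slfn8 and Slfn9, taken by symbol from expression tables that list 17067 genes. Each of the 7 was found once, and each was among the 10005 genes that reached 1 FPKM in 3 or more of the 6 samples and were tested. The deposited values name no unit and were read as FPKM, a fragment count divided by the transcript's length and the library's size. Comparisons of level between genes depend on the length used for each gene, which the sources used here do not state.

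Both groups were colon macrophages, taken by flow sorting for CD45+CD11b+F4/80+ cells, of C57BL/6 mice aged 10 weeks. All the mice had received DSS, dextran sulfate sodium, which injures the colon lining and causes colitis. They differed by genotype: 3 samples were wild type (WT) and 3 were labelled Gsdmd-/-, a knockout of the gene of gasdermin D, which forms membrane pores in pyroptotic cell death. The labels do not say whether each sample came from a separate mouse or how many mice were pooled, so the p-values rest on the spread between the samples as labelled, and that spread may be technical. Changes are Gsdmd-/- minus WT on the scale of log2(FPKM + 1), tested with limma, and a gene is said to have risen or fallen where its p adjusted over all tested genes was under 0.05.

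Schlafen proteins share an N-terminal core that binds and, in several members, cuts RNA, transfer RNA in particular. They fall into short forms (Slfn1, Slfn2), intermediate forms (Slfn3, Slfn4) and long forms that add a helicase-like C-terminal part (Slfn5, Slfn8, Slfn9). Myeloid cells and T cells induce many of them in response to type I interferon, and the family is known for restraining proliferation and viral replication.

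The members lie in 1 cluster on chromosome 11, from 82951349 to 83215154 in GRCm38.p6, a span of 263806 bases. Slfn5, Slfn2, Slfn1, Slfn4 and Slfn3 are on the plus strand, and the adjacent pair Slfn9 and Slfn8 on the minus strand. RefSeq promoters of the same build were found for 7 of 7 members, 8 start sites in all because Slfn8 has a second one. In the 250 bases before the start, the long members held an interferon response element core and the short and intermediate members held an Ets-type site. The windows are shown because these elements split the members by form, with 60 bases each, 5′ to 3′ on the gene's strand and the matched bases in capitals. The start used for Slfn5 lies inside its annotated gene body, which begins at 82951349, and so do its matched bases. The windows printed for the other members lie outside their gene bodies.

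The first set matches the interferon response element core (GAAA, any 2 bases, GAAA), searched on both strands:
Slfn5 (chr11:82951922-82951981, plus strand): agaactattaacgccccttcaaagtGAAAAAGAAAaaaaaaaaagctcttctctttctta
Slfn8 (chr11:83020824-83020883, minus strand): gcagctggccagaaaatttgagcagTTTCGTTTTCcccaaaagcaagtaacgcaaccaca
Slfn9 (chr11:82991841-82991900, minus strand): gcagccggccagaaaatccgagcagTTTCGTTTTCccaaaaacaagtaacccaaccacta

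The second set matches ACTTCCTGG, which contains the core recognised by Ets factors such as PU.1, searched on both strands:
Slfn1 (chr11:83116720-83116779, plus strand): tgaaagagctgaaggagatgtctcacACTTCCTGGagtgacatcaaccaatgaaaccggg
Slfn2 (chr11:83065031-83065090, plus strand): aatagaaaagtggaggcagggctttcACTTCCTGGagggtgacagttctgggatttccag
Slfn3 (chr11:83191262-83191321, plus strand): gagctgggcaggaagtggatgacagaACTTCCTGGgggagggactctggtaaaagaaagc
Slfn4 (chr11:83175087-83175146, plus strand): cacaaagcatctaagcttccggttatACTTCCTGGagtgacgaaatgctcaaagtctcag

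The interferon core was 155 bases before the start in Slfn5, 45 in Slfn9, and 48 before the nearer start of Slfn8 and 136 before the other. Of all 32851 RefSeq promoters searched in the same way, 2.98% held it. Slfn8 and Slfn9 also matched a longer form, the same core followed by CT, which overlaps it and was found in 0.222% of promoters, and Slfn5 did not. The Ets-type site lay 74, 55, 42 and 73 bases before the start of Slfn1, Slfn2, Slfn3 and Slfn4, and 0.7% of promoters held it. Neither motif was matched in the windows of the other set. A match to the AP-1 site TGANTCA, held by 6.75% of promoters, was found 34 bases before the start of Slfn4 and in no other member. The gamma-activated site TTCNNNGAA (7.02% of promoters) and the NF-kB site (GGGA, any 2 bases, TTCC, 1.21%) were matched in none of the 8 windows. The motifs were chosen after these promoters had been read, and the members are copies of one another, so the matches are not independent. They describe these letters and show neither binding nor a cause.

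Depth, estimated from the step size of low values, was nearly equal between groups, at 19.4 M to 20.2 M fragments per library. Gsdmd, the targeted gene, stood at 98.1 ± 1.08 FPKM in WT but 29.1 ± 0.612 FPKM in Gsdmd-/- libraries (SD, n = 3 each), without overlap. Its transcript was thus lower but still measured in the libraries labelled Gsdmd-/-, at 0.296 of the WT level, and the labels do not say which part of the gene was removed. All 9 macrophage markers listed were above the expression minimum, and their sums were 7972 to 8468 FPKM in WT against 8851 to 8925 FPKM in Gsdmd-/-. Most of that was Lyz2, with means of 5008 FPKM and 5469 FPKM. All genes together summed to 476271 to 485411 FPKM in WT and to 551502 to 565388 FPKM in Gsdmd-/-. Relative to its library's total, the marker sum was thus lower in every Gsdmd-/- library than in any WT library. As deposited 3 of the markers rose and 5 fell, where 40.6% and 36.9% of all tested genes did. After removal of the length and GC trend described next 1 rose and 8 fell, where 30.1% and 31.2% of all genes did. Cd68 and Lyz2 turned from higher to lower. The transcripts of all 3 sorted proteins fell, both as deposited and after trend removal: Adgre1, which encodes F4/80, averaged 291 FPKM in WT against 216 FPKM in Gsdmd-/-, Itgam (CD11b) 176 FPKM against 91.3 FPKM, and Ptprc (CD45) 92.4 FPKM against 57.9 FPKM. Their part in the Schlafen changes was not tested. Across all tested genes the log2 change fell with transcript length (Spearman rho -0.652 over 9853 genes with an annotated length, across genes, which are not independent replicates). Every Schlafen change is therefore given also with a smooth trend on transcript length and GC content removed.

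Slfn2 was the most abundant member in both groups, followed by Slfn5, Slfn8 and Slfn9, and in this part of the order the libraries of one gene did not overlap those of the next. In WT, Slfn1 at 21.6 ± 1.17 FPKM and Slfn3 at 21.3 ± 2.27 FPKM overlapped, and Slfn4 was lowest at 13.2 ± 0.272 FPKM (SD, n = 3). In Gsdmd-/-, Slfn1 stood alone at 29.2 ± 1.22 FPKM, while Slfn4 at 12.1 ± 0.232 FPKM and Slfn3 at 11.4 ± 0.936 FPKM overlapped. Slfn2 had a mean level above that of 99.2% of tested genes, Slfn5 above 97.2%, Slfn8 above 95.2% and Slfn9 above 88.0%.

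As deposited, 2 of the 7 members rose in Gsdmd-/- macrophages, both short forms, and 5 fell, the intermediate and long forms. Over all tested genes 40.6% rose and 36.9% fell, so most genes were called in one direction or the other, and the counts alone set the family apart from other genes in neither direction. The 2 groups did not overlap for any of the 7 members, nor for 79.4% of all tested genes (41.2% higher in Gsdmd-/-, 38.3% lower). The median log2 change of the members was -0.13, beside 0.03 over all tested genes, where the median absolute change was 0.33. After removal of the length and GC trend, 4 members rose (Slfn1, Slfn2, Slfn4, Slfn8) and 2 fell (Slfn3, Slfn5), where 30.1% of all genes rose and 31.2% fell, and the median of the members was 0.15. The counts were also 4 and 2 when the median in place of the longest transcript length was used, where 35.5% of all genes rose and 31.8% fell. After quantile normalization, which forces all libraries to one distribution, 1 member rose and 4 fell, beside 41.0% and 36.2% of all genes.

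**Figure D1:**
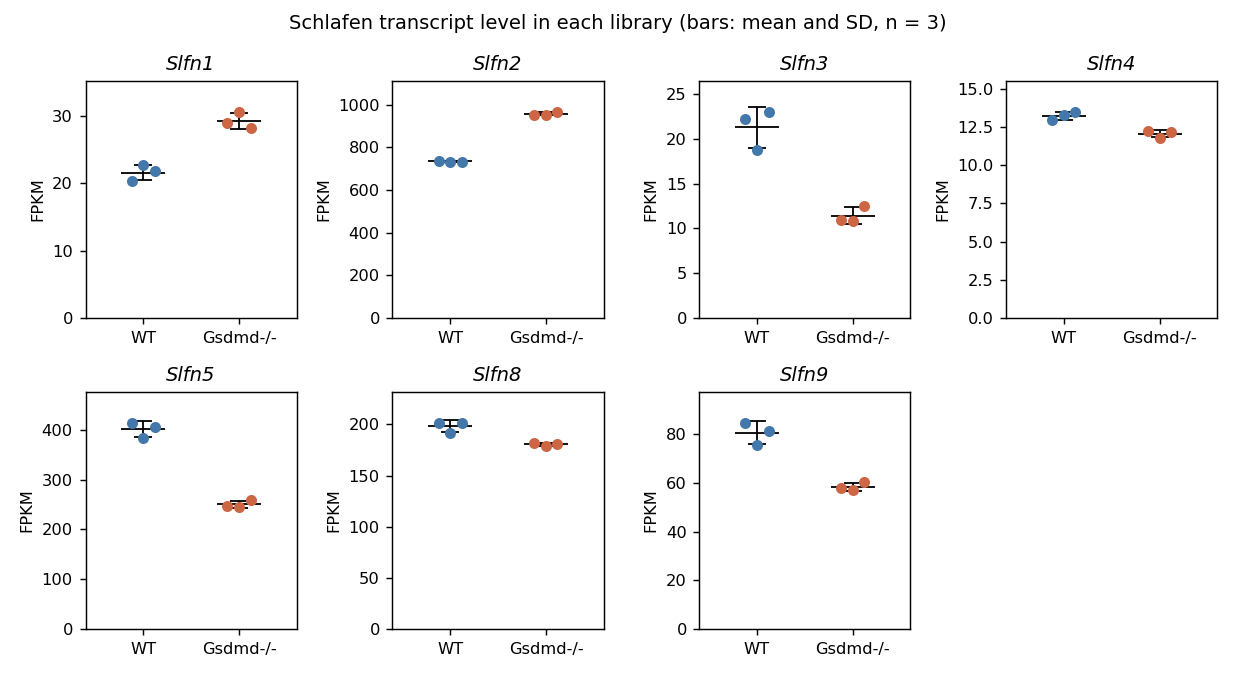
Transcript level in FPKM (vertical axes, each from 0) of the 7 Schlafen genes in WT and Gsdmd-/- libraries; points are single libraries, and bars give the mean and SD of 3. As deposited, Slfn1 and Slfn2 are higher in Gsdmd-/- and the other 5 are lower, with no overlap; Slfn4 and Slfn8 are higher, and Slfn9 is not called, once the length and GC trend is removed, and Slfn2 is not called after quantile normalization.

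Slfn2 encodes a short form that T cells and monocytes need to stay quiescent, and its protein binds transfer RNAs and shields them from cleavage by angiogenin. Its WT levels were 737, 732 and 733 FPKM, and its Gsdmd-/- levels 953, 952 and 965 FPKM. The WT values were within 5.35 FPKM of one another, and 214 FPKM lay between the highest WT and the lowest Gsdmd-/- library. Slfn2 rose to 1.30 times the WT level, a log2 change of 0.38 with an SE of 0.0219 (adjusted p = 1.97e-08). Its change after trend removal was 0.15 (SE 0.0179, adjusted p = 4.18e-05). After quantile normalization it was -0.02 and was not called (adjusted p = 0.548).

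Slfn1, the founding member, slows the growth of thymocytes when overexpressed. The WT libraries held 20.3, 22.6 and 21.8 FPKM, and the Gsdmd-/- libraries 28.9, 30.5 and 28.2 FPKM. All Gsdmd-/- libraries were above all WT libraries, with 5.54 FPKM between the nearest of them and no more than 2.37 FPKM between libraries of one group. Slfn1 rose to 1.35 times the WT level, a log2 change of 0.42 with an SE of 0.0487 (adjusted p = 7.14e-06), and of 0.33 after trend removal (SE 0.0462, adjusted p = 0.000112). Within a library the ratio of Slfn1 to Slfn2 was 0.0294 ± 0.0017 in WT and 0.0305 ± 0.00147 in Gsdmd-/- (SD, n = 3 each), with overlapping groups (two-sided exact permutation test, p = 0.5, also 0.5 adjusted over the 4 ratios tested).

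Slfn3 is an intermediate form studied in T cells and in the differentiation of intestinal epithelium. Among the 7 members it had the largest change on the log2 scale as deposited, while after quantile normalization Slfn5 changed more (-0.92 against -0.83). It was measured at 22.15, 18.7 and 23.0 FPKM in the WT libraries against 10.95, 10.8 and 12.5 FPKM in the Gsdmd-/- libraries. WT replicate 2 was the lowest of the WT libraries and still 6.22 FPKM above the highest Gsdmd-/- library. Slfn3 fell to 0.536 of the WT level, a log2 change of -0.84 with an SE of 0.0767 (adjusted p = 1.56e-06), larger in size than that of 93.9% of tested genes. After trend removal the change was -0.86 (SE 0.0737, adjusted p = 3.28e-06). Its longest coding transcript, of 1966 bases, placed it among genes of 1727 to 2125 bases, for which the median change was 0.24 and the quartiles were 0.03 and 0.44.

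Slfn4, the other intermediate form, is induced by interferon and by Toll-like receptor ligands in macrophages and marks suppressive myeloid cells of the inflamed stomach. The 3 WT libraries had 12.9, 13.3 and 13.5 FPKM, and the 3 Gsdmd-/- libraries 12.2, 11.8 and 12.2 FPKM. The highest Gsdmd-/- library was 0.70 FPKM below the lowest WT library, so the groups were separate but close. The log2 change was -0.12 (SE 0.0455, adjusted p = 0.0264), smaller in size than that of 80.2% of tested genes. It turned upward after trend removal, to 0.17 (SE 0.0413, adjusted p = 0.0041). The call was lost after quantile normalization (adjusted p = 0.067) and without WT replicate 2 (adjusted p = 0.0557), WT replicate 3 (0.0954) or Gsdmd-/- replicate 2 (0.0789).

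Slfn3 and Slfn4 lie next to each other on the same strand. Within a library the ratio of Slfn3 to Slfn4 was 1.71, 1.41 and 1.71 in WT and 0.895, 0.914 and 1.03 in Gsdmd-/-. Slfn3 was thus above Slfn4 in all 3 WT libraries, and below it in 2 of 3 Gsdmd-/- libraries. The groups did not overlap (two-sided exact permutation test, p = 0.1, the smallest that 3 against 3 can give, 0.133 adjusted over the 4 ratios tested). A ratio within a library does not depend on any factor applied to the whole library.

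Slfn5, a long form, enters the nucleus, and its human counterpart represses interferon-stimulated genes. Its WT libraries read 414, 383 and 405 FPKM, and its Gsdmd-/- libraries 247, 245 and 258 FPKM. The lowest WT library was 124 FPKM above the highest Gsdmd-/- library. Slfn5 fell to 0.624 of the WT level, a log2 change of -0.68 with an SE of 0.0339 (adjusted p = 7.12e-09). It also fell after trend removal, by less: -0.20 (SE 0.0204, adjusted p = 9.88e-06) with the length of the longest coding transcript, 5979 bases, and -0.42 (SE 0.0241, adjusted p = 9.69e-08) with the median length, 3007 bases.

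Slfn8 is a long form and a rodent relative of human SLFN11 and SLFN13, which cut transfer RNA. WT levels were 202, 191 and 202 FPKM, and Gsdmd-/- levels 182, 179 and 181 FPKM. The groups were separate by 9.78 FPKM, with WT replicate 2 closest to the Gsdmd-/- libraries. The log2 change was -0.13 as deposited (SE 0.0291, adjusted p = 0.00122) and 0.16 after trend removal (SE 0.0219, adjusted p = 9.34e-05), so its direction depended on that step.

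Slfn9, the neighbour and a close relative of Slfn8, had 84.8, 75.5 and 81.5 FPKM in the WT libraries, and 57.8, 57.1 and 60.2 FPKM in the Gsdmd-/- libraries. The lowest WT library was 15.3 FPKM above the highest Gsdmd-/- library. As deposited it fell to 0.724 of the WT level, a log2 change of -0.46 with an SE of 0.0429 (adjusted p = 1.14e-06). After trend removal the change was 0.03 (SE 0.0301, adjusted p = 0.354) with the longest transcript and -0.05 (SE 0.0315, adjusted p = 0.157) with the median, and neither was called. The ratio of Slfn8 to Slfn9 within a library was 2.38, 2.53 and 2.47 in WT and 3.14, 3.14 and 3.01 in Gsdmd-/-, with no overlap (two-sided exact permutation test, p = 0.1, 0.133 adjusted).

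**Figure D2:**
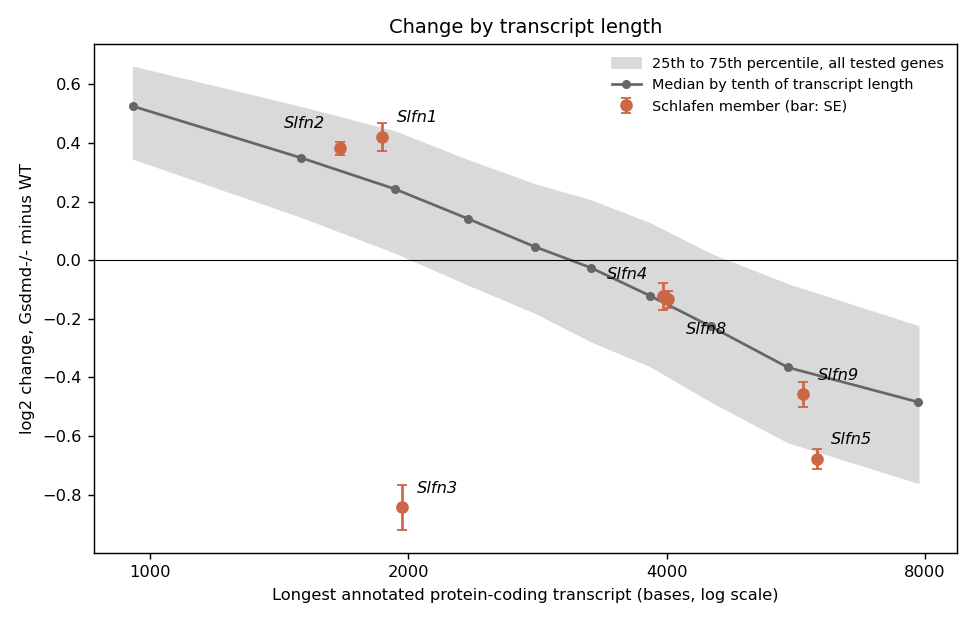
Log2 change, Gsdmd-/- minus WT (vertical axis), against the length of the longest protein-coding transcript in bases (log scale); the line and band give the median and quartiles of all tested genes in 10 bins of length, and points with SE bars the 7 members. Slfn2, Slfn4, Slfn8 and Slfn9 lie inside the band, Slfn1 (0.42) near its upper edge (0.44), Slfn5 (-0.68) just under it and Slfn3 (-0.84) far below it.

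Set against genes of like length, the members therefore differed in how far they stood from the trend. Slfn4 and Slfn8, of 3958 and 4011 bases, had changes of -0.12 and -0.13, where genes of 3531 to 4173 bases had a median of -0.12. Slfn9 and Slfn5, of 5769 and 5979 bases, had changes of -0.46 and -0.68, where genes of 4927 to 6445 bases had a median of -0.37 and quartiles of -0.62 and -0.08. Slfn2, of 1664 bases, had a change of 0.38 beside a median of 0.35. On a TPM scale, where each library sums to the same total, the median of all tested genes moved from 0.03 to -0.17. The members were then at 0.21 (Slfn1), 0.16 (Slfn2), -1.08 (Slfn3), -0.34 (Slfn4), -0.90 (Slfn5), -0.36 (Slfn8) and -0.68 (Slfn9), on the same sides of 0 and of the threshold as before. The sources used here do not state which length the authors used per gene. Slfn4, Slfn5, Slfn8 and Slfn9 have annotated coding transcripts that differ widely in length, those of Slfn4 from 1830 to 3958 bases.

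**Figure D3:**
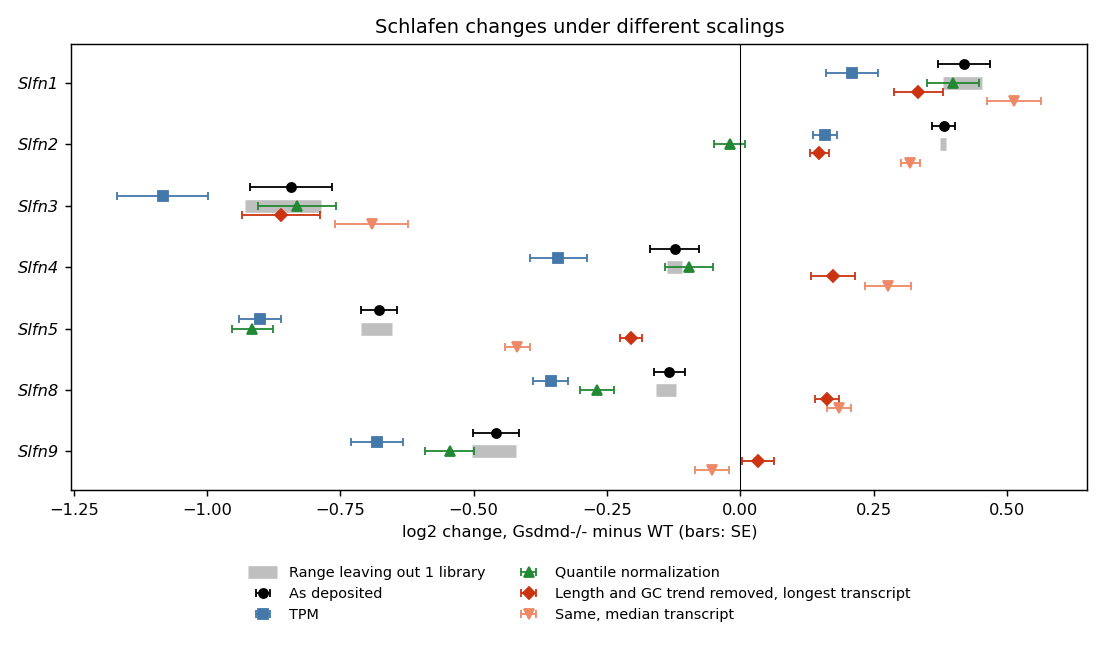
Log2 change of each member with SE (horizontal axis), for the deposited values and 4 other scalings; grey bars span the values found when 1 library is left out. Slfn3 and Slfn5 stay below 0 and Slfn1 above 0 under all of them, Slfn2 is at -0.02 after quantile normalization, and Slfn4, Slfn8 and Slfn9 (0.03) are above 0 with the trend removed by the longest transcript.

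As deposited, the family's summed level overlapped between the groups while its make-up differed. The 7 members summed to 1494, 1436 and 1479 FPKM in WT and to 1492, 1485 and 1518 FPKM in Gsdmd-/- libraries. All genes together summed to 476271 to 485411 FPKM in WT and to 551502 to 565388 FPKM in Gsdmd-/- libraries. Relative to its library's total, the family's sum was thus lower in every Gsdmd-/- library than in any WT library. Slfn2 made up 49.4%, 51.0% and 49.5% of the family's sum in WT and 63.9%, 64.1% and 63.6% in Gsdmd-/- libraries. The share of Slfn5 was 27.3 ± 0.559% in WT and 16.7 ± 0.293% in Gsdmd-/- (SD, n = 3 each). In each library Slfn2 exceeded Slfn5, by 1.78, 1.91 and 1.81 times in WT and by 3.85, 3.89 and 3.73 times in Gsdmd-/-, with no overlap (two-sided exact permutation test, p = 0.1, 0.133 adjusted). Slfn2 was higher and Slfn5 lower in every Gsdmd-/- library, so the separation of this ratio follows from those values and adds no evidence. These shares and ratios are of the deposited values, which carry the length trend: after its removal the log2 changes of Slfn2 and Slfn5 were 0.15 and -0.20, those of Slfn8 and Slfn9 0.16 and 0.03, and those of Slfn3 and Slfn4 -0.86 and 0.17. In bulk RNA, a change in the number of cells of one type and a change in transcripts per cell cannot be told apart.

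**Figure D4:**
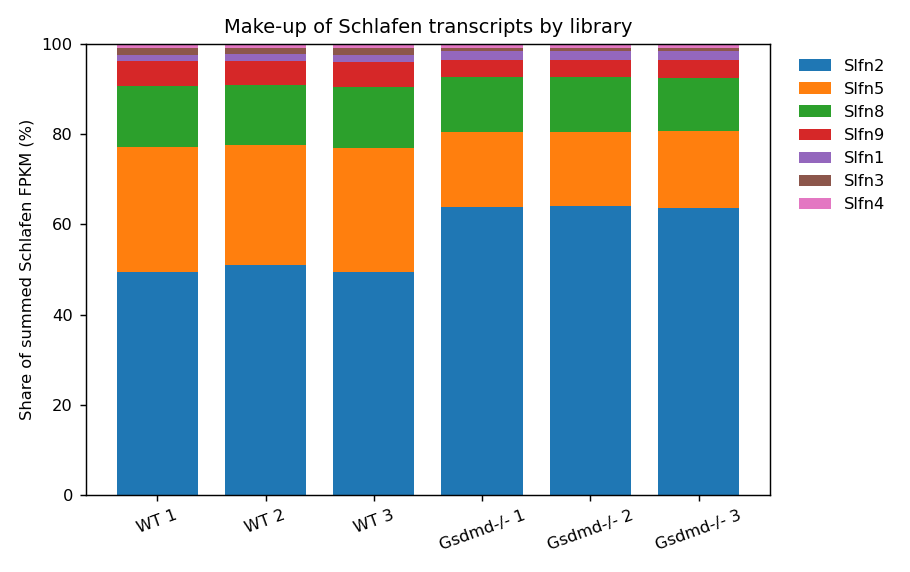
Share of the summed FPKM of the 7 Schlafen genes (vertical axis, percent) taken by each gene in each of the 6 libraries. Slfn2 takes 49.4% to 51.0% in WT and 63.6% to 64.1% in Gsdmd-/- libraries, and the shares of Slfn5, Slfn9 and Slfn3 are smaller in Gsdmd-/-.

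Other Schlafen genes were low. Slfn10-ps, a transcribed pseudogene between Slfn8 and Slfn2, had WT levels of 10.8, 9.52 and 10.6 FPKM and Gsdmd-/- levels of 4.87, 4.59 and 5.94 FPKM, with no overlap. It fell to 0.499 of the WT level, a log2 change of -0.88 with an SE of 0.0809 (adjusted p = 1.11e-06), and it had no protein-coding transcript with which to remove the length trend. Slfn14, whose human counterpart cuts ribosomal RNA in reticulocytes, was listed at 0.02 FPKM or less in every library. Slfnl1, a Schlafen-like gene on chromosome 4, was listed at 0 in 5 libraries and at 0.08 FPKM in Gsdmd-/- replicate 1.

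Members share sequence, and reads from the shared stretches could be assigned to either gene. Of all 50-base stretches in the annotated transcripts of Slfn8, 14.6% also occur in another gene, mostly Slfn10-ps, and for Slfn9 the share was 11.9%, also mostly Slfn10-ps. For Slfn3 and Slfn4 it was 16.0% and 11.3%, with the other of the pair as the main partner, and for Slfn2 and Slfn1 4.27% and 0.606%. For Slfn5 it was 11.1%, mostly from the noncoding gene Slfn5os, which overlaps it, and whether reads were counted by strand is likewise unstated. Of 100-base stretches, fewer were shared: 2.92% for Slfn3, 0.271% for Slfn4, 6.40% for Slfn5, 3.39% for Slfn8 and 3.71% for Slfn9. The values of Slfn3, Slfn4, Slfn5, Slfn8, Slfn9 and Slfn10-ps are uncertain to an extent that depends on the length of the reads.

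**Figure D5:**
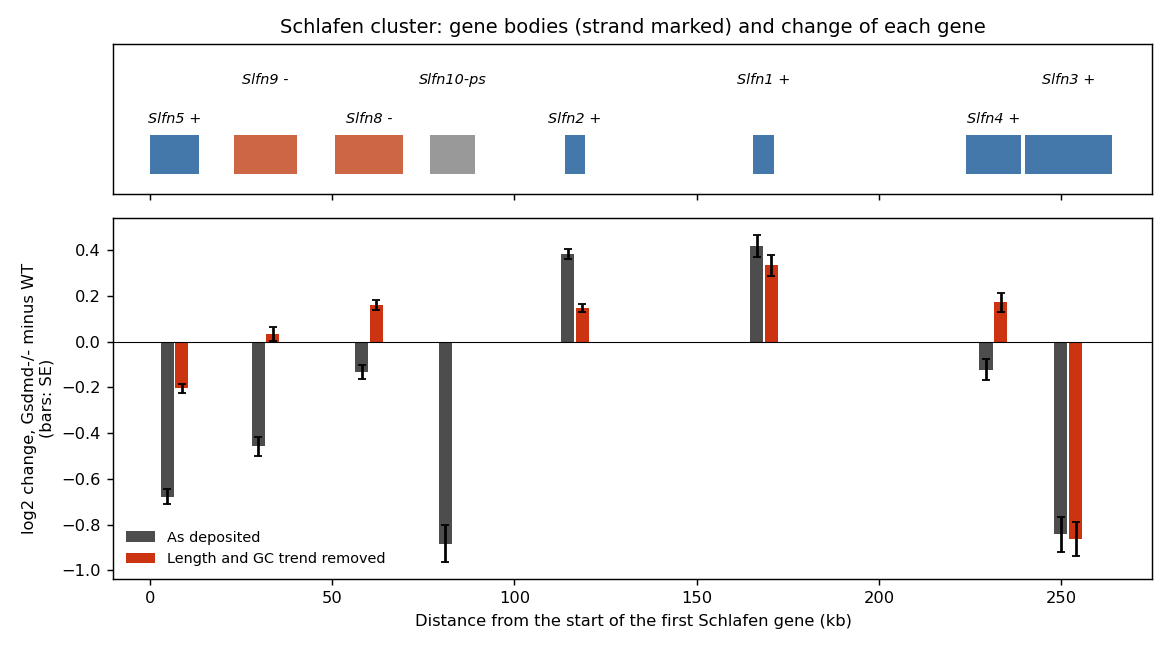
Top, gene bodies of the 7 members and Slfn10-ps by distance in kb from the start of the cluster, with the strand; bottom, log2 change of each gene with SE, as deposited (dark) and after removal of the length and GC trend (red). Slfn2 and Slfn1, in the middle, are above 0 in both, Slfn5 and Slfn3, at the ends, are below 0 in both, and Slfn9, Slfn8 and Slfn4 are below 0 as deposited and above 0 with the trend removed.

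Along the cluster the changes followed no single direction. The genes at its ends, Slfn5 and Slfn3, fell both as deposited and with the trend removed, and Slfn2 and Slfn1 in the middle rose in both. Of 23 protein-coding genes within 500 kb on either side, 17 were tested, of which 9 rose and 5 fell, with a median log2 change of 0.17. Over all tested genes 40.6% rose and 36.9% fell. After trend removal 6 neighbours rose and 2 fell, where 30.1% and 31.2% of all genes did. The closest tested gene before the cluster was Nle1, a ribosome assembly factor gene, with a mean of 4.15 ± 0.572 FPKM in WT against 5.08 ± 0.206 FPKM in Gsdmd-/- (log2 change 0.25 at adjusted p = 0.0132, but -0.20 at adjusted p = 0.0625 after trend removal; SD, n = 3 each). The neighbours with the smallest p were Ccl4, Ccl5, Wfdc17 and Ccl6, secreted proteins of which 3 are chemokines, and they rose by 0.64, 0.96, 0.75 and 0.30 on the log2 scale, and by 0.15, 0.31, 0.37 and 0.14 after trend removal.

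Genes of interferon signalling, which induces the family, moved in both directions. Of 17 tested members of that list 6 rose and 8 fell, where 40.6% and 36.9% of all genes did, with a median log2 change of -0.06. After trend removal 4 rose and 10 fell, where 30.1% and 31.2% of all genes did. In TPM 3 rose and 11 fell, where 2575 and 5352 of all tested genes did. Ifnb1, which encodes the ligand interferon beta, had 2.27 times its WT level in Gsdmd-/-. Jak1 and Jak2, which encode kinases of cytokine receptors, fell by 0.59 and 0.61 on the log2 scale. Irf9, which encodes a DNA-binding factor of interferon signalling, had a log2 change of 0.02 that was not called (SE 0.0325, adjusted p = 0.647), with levels of 54.8 to 57.3 FPKM in WT and 56.5 to 57.6 FPKM in Gsdmd-/-. Irf7, itself interferon-induced, rose to 1.41 times its WT level. On the log2 scale Ifnb1 and Irf7 rose by 1.17 and 0.50 as deposited, and by 0.86 and 0.23 after trend removal. With the trend removed Jak1 and Jak2 fell by less, 0.30 and 0.21, and Irf9 was again not called.

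Other genes induced by type I interferon likewise split. Of 23 tested, 14 rose and 8 fell, where 40.6% and 36.9% of all genes did, with a median log2 change of 0.19. After trend removal the counts were 10 and 8, where 30.1% and 31.2% of all genes were called, and the median 0.01. After quantile normalization 9 rose and 10 fell, beside 41.0% and 36.2% of all genes. The 4 with the smallest p were Cmpk2 and Ifit2, which fell by 0.75 and 0.80, and Ifit3 and Oas1a, with rises of 0.65 and 0.54 on the log2 scale. With the trend removed Cmpk2 and Ifit2 fell by 0.74 and 0.48, and Ifit3 and Oas1a rose by 0.49 and 0.29.

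Genes that cleave transfer RNA or protect it from cleavage were also examined, since Slfn2 acts on that substrate. Of 14 tested, 11 rose and 3 fell as deposited, where 40.6% and 36.9% of all genes did, with a median log2 change of 0.27, and after trend removal the counts were 7 and 1, where 30.1% and 31.2% of all genes were called, and the median 0.15. In TPM, 4 rose and 3 fell, where 2575 and 5352 of all tested genes did. Ang, which encodes angiogenin, had WT levels of 4.35, 4.13 and 3.53 FPKM and Gsdmd-/- levels of 9.41, 6.18 and 6.52 FPKM. The groups did not overlap, and Gsdmd-/- replicate 1 was the highest. Its log2 change was 0.73 at adjusted p = 0.000557, and 0.38 at adjusted p = 0.0222 after trend removal. Rnh1, the inhibitor of angiogenin, rose to 289 ± 6.06 FPKM from 206 ± 3.38 FPKM in WT (SD, n = 3 each), and also rose after trend removal, by 0.23. Tsen34, of the splicing endonuclease, rose by 0.59, and Rnaset2a by 0.51, a value that its near-identical copy makes uncertain. With the trend removed Tsen34 and Rnaset2a rose by 0.21 and 0.46.

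Regulators of quiescence, the state that Slfn2 helps to keep, were lower more often than higher. Of 13 tested of 14 listed, 1 rose and 11 fell, where 40.6% and 36.9% of all genes did, with a median log2 change of -0.33, and after trend removal the counts were 2 and 8, where 30.1% and 31.2% of all genes were called, and the median -0.23. Btg1, an antiproliferative gene, fell to 0.654 of its WT level, and Foxo3, a transcription factor of quiescent cells, to 0.622. The related antiproliferative genes Tob1 and Tob2 fell by 0.55 and 0.60 on the log2 scale. All 4 also fell after trend removal, by 0.17, 0.30, 0.55 and 0.54 on that scale in the same order.

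Markers of other cell types were at 0 or near it for some defining genes and above Slfn3 and Slfn4 for others. The T cell receptor genes Cd3e and Cd3d were at 0.05 FPKM or less on average in both groups. The 8 T cell markers measured summed to 16.2 to 17.3 FPKM in WT against 19.8 to 22.1 FPKM in Gsdmd-/- libraries, with 3 of 4 tested markers higher and 1 lower. The neutrophil genes Ly6g and Retnlg were at 0.03 FPKM or less on average, while the 9 neutrophil markers, led by Csf3r, summed to 36.4 to 40.4 FPKM against 47.0 to 51.1 FPKM, with 3 of 3 tested higher. The 8 fibroblast markers, led by Bgn, summed to 30.2 to 31.8 FPKM against 82.2 to 84.1 FPKM, with 6 of 6 tested higher. Beside these counts, 40.6% of all tested genes were higher and 36.9% lower. With the length and GC trend removed, 3 T cell, 3 neutrophil and 6 fibroblast markers were higher and 0 lower. Of all genes 30.1% were then higher and 31.2% lower.

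The 7 B and plasma cell markers were each below 1 FPKM in every library and summed to at most 0.44 FPKM in WT and 0.80 FPKM in Gsdmd-/-. The 6 natural killer and innate lymphoid markers summed to 44.3 to 46.8 FPKM against 25.1 to 26.2 FPKM, nearly all of it Il7r, which fell by 0.82 on the log2 scale, and the other 5 were below 1 FPKM. The 6 dendritic cell markers summed to 6.81 to 7.80 FPKM against 8.86 to 9.77 FPKM, and of 2 tested Ccr7 rose by 0.43 and Xcr1 was not called. With the trend removed both rose, Ccr7 by 0.16 and Xcr1 by 0.41. The 4 epithelial markers measured summed to 3.07 to 3.52 FPKM against 2.11 to 2.22 FPKM, and the only one tested, Cdh1, fell by 0.52. The 5 endothelial markers summed to 62.5 to 66.6 FPKM against 33.1 to 38.5 FPKM, mostly Kdr, which fell by 1.08, while the other 2 tested were not called. With the trend removed the endothelial marker Vwf rose by 0.23, and Il7r, Cdh1 and Kdr fell by 0.49, 0.37 and 0.75. Of all tested genes 40.6% rose and 36.9% fell as deposited, and 30.1% and 31.2% with the trend removed. The part of these cells in the Schlafen changes was not tested.

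The genes whose values over the 6 libraries were most like those of Slfn2, by Euclidean distance of centred log2 values, were Cd40, a co-stimulatory receptor gene (distance 0.0275), Smarce1, a chromatin remodelling subunit gene (0.0279), and Hdac10, a deacetylase gene (0.034). For Slfn3, the member with the largest change as deposited, they were Ireb2, an iron-responsive RNA-binding protein gene (0.0955), Pbrm1, a chromatin remodelling subunit gene (0.103), and Trpm7, a channel kinase gene (0.106). Each of the latter 3 had, like Slfn3, its lowest WT value in replicate 2, a likeness that choosing genes by this distance favours. With the trend removed they were at -0.26, -0.21 and -0.21, where Slfn3 was at -0.86.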

How the data were processed

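RNA of sorted colon macrophages was sequenced on a BGISEQ-500 per the labels' protocols, 3 samples per genotype, grouped and numbered by sample title. The submitters' processing notes list Bowtie2 2.2.5 and the build GRCm38.p6; counting program, annotation and strand use were not given in the sources used here. Deposited values name no unit and were read as FPKM, because their sums differ between libraries and low values step with transcript length. The authors' FPKM are not counts, so limma 3.58.1 (R 4.3.3, trend and robust) was run on log2(FPKM + 1) over genes with at least 1 FPKM in at least 3 samples, with Benjamini-Hochberg adjustment over all of them, and checked on simulated data. Depth was estimated from the step size in genes with 1 annotated transcript, and arrives at 19.4 M to 20.2 M fragments, at which the lowest implied count of a member in any library was 427 fragments (Slfn3).

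Lengths and GC content came from the longest protein-coding transcript of GENCODE M21 (98.5% of tested genes). Their trend was removed from each library with additive smooths (mgcv 1.9.3). Promoters and coordinates are RefSeq, GRCm38.p6, 1-based. Alternatives were another pseudocount, other filters, TPM, median ratio scaling, quantile normalization, limma without trend or robust, a replicate block and leaving out each library. The median transcript length was added after seeing the data. The members, lists and tests were chosen with earlier results of these data known. Named genes were the 7 members, other Schlafen genes, Gsdmd, up to 4 genes of each list with the smallest p, Ifnb1, Irf9, Irf7 and Ang, the closest tested neighbours, and the 3 genes most like the most abundant and the most changed member; some are not reported here. Marker lists were given whole, by counts and sums.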

Additional observations from a re-analysis of the deposited data

How the results depend on the processing

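Slfn1, Slfn3 and Slfn5 kept their direction and their side of the threshold under all 17 alternatives, with log2 changes of 0.21 to 0.51, -1.08 to -0.69 and -0.92 to -0.20. After quantile normalization Slfn2 was at -0.02 and Slfn4 at -0.10, neither called, and 1 member rose. After removal of the length and GC trend 4 members rose and 2 fell, with Slfn4 at 0.17, Slfn8 at 0.16 and Slfn9 at 0.034. With the median transcript, added after seeing the data, the counts were also 4 and 2, with Slfn4 at 0.28, Slfn8 at 0.18 and Slfn9 at -0.053, not called. In TPM 2575 genes rose and 5352 fell, against 4059 and 3693 as deposited. The causes were not tested. Leaving out 1 library at a time gave log2 changes of Slfn4 from -0.14 to -0.11, past the threshold in 3 of 6 cases, and changed the call of no other member. Over the gene lists and alternatives, 47 counts moved by over 1.5 times and 463 by less. The lowest implied count of a member was 427 fragments (Slfn3), and whether depth limited a call was not tested.

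Same-numbered samples of the 2 genotypes showed little joint deviation (correlations of -0.08, 0.13 and 0.01). Such correlations cannot tell whether these samples were handled together, which was not tested. Replicate 2 was the lowest library of both groups for Slfn2, Slfn3, Slfn5, Slfn8 and Slfn9, and the highest of both for Slfn1. For Slfn4 it was lowest in Gsdmd-/- only. With the replicate number as a block, the SE was smaller for Slfn1, Slfn3, Slfn5, Slfn8 and Slfn9, and larger for Slfn2 and Slfn4. With the replicate number as a block, 2 members rose and 5 fell, as without it, and 4095 genes rose and 3706 fell. With the block and the trend removed, 4 members rose and 2 fell, and Slfn4 was at 0.17, Slfn8 at 0.16 and Slfn9 at 0.034.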
